A study of Mus musculus with 11 samples.

Results

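Expression of the p53 gene Trp53 and of 7 genes known as its targets (Mdm2, Cdkn1a, Ccng1, Trp53inp1, Sesn1, Zmat3 and Phlda3) was followed in activated mouse CD8+ T cells. The 8 genes were chosen by name, with earlier results of these data known, and all 8 were present among the 25562 gene symbols of the expression table. These cytotoxic lymphocytes came from C57BL/6 mice, an inbred strain, and were purified by kit from splenocytes. After a pretreatment of 22 h they were stimulated during 24 h by plate-bound anti-CD3 (1 µg/mL) and by anti-CD28 (0.5 µg/mL), antibodies that replace antigen and costimulation. The AOAH group (4 libraries) received 10 µg/mL of His-tagged recombinant human acyloxyacyl hydrolase, a lipase that removes fatty acyl chains from lipopolysaccharide and phospholipids, together with the ethanol control. The PC group (3 libraries) received 60 µM of PC16:0-20:4, a phosphatidylcholine with palmitoyl and arachidonoyl chains, and then protein buffer with 10% glycerol. The vehicle group (4 libraries) received the ethanol control and the same buffer. The labels differ on whether AOAH was given before or during activation, on plate-bound antibody or beads, and on whether the medium held 100 IU/mL interleukin-2. No glycerol share is labelled for AOAH, so a buffer difference and AOAH cannot be told apart. Whether libraries came from different mice or cultures is not labelled, and the p-values then reflect a spread between libraries that may be technical. They number the libraries by batch (1 to 4, with no PC library in batch 4).

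p53 is a transcription factor that accumulates when DNA is damaged or cells are stressed. Its level is set largely at the protein, by the ubiquitin ligase MDM2, which is itself a p53 target and so closes a negative feedback loop. Its targets stop the cell cycle, repair DNA, alter metabolism or lead to cell death, and in T cells p53 restrains clonal expansion. Several of the targets are also driven by other factors, among them FOXO proteins for Sesn1, Trp53inp1 and Bbc3, and ATF4 for Sesn2 and Ddit4.

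Values are given as TPM, the length-corrected share of a library's transcripts, so levels of different genes can be set side by side. Differences are given on the log2(TPM + 1) scale, which understates the change of low genes. A gene was called at a Benjamini-Hochberg adjusted p under 0.05 by limma, adjusted over all genes that averaged 1 TPM or more. The values come from bulk RNA, in which fewer cells of a type and less RNA per cell cannot be told apart. Read depth per library is unknown, because TPM keeps none. Between 11423 and 11739 genes per library reached 1 TPM. The 8 listed CD8 T cell markers summed to 2326 to 2364 TPM with AOAH, 2994 to 3018 with PC and 2530 to 2613 with vehicle, and the 3 CD4 markers to at most 6.86 TPM in any library. Markers of B cells summed to 152 to 162 TPM with AOAH, 188 to 195 with PC and 173 to 182 with vehicle. Those of myeloid cells reached at most 8.59 TPM, of NK cells at most 31.0 TPM and of erythroid cells at most 1.66 TPM. No listed marker was at 0 in all 11 libraries, and the part of other cells in the results was not tested.

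The 8 genes did not move as a group. With PC, Cdkn1a and Trp53inp1 were higher and Trp53 was slightly lower, and with AOAH Trp53inp1 and Sesn1 were lower. Mdm2, Ccng1, Zmat3 and Phlda3 were called in none of the 3 pairs of groups compared. With AOAH, 2 of the 8 genes (25%) were called against a background of 25.2% of 11561 genes tested. With PC, 3 of 8 (37.5%) were called against a background of 19.5% of 11628 genes. Between AOAH and PC directly, 4 of 8 (50%) were called against 45.8% of 11596 genes. Only the last comparison has no vehicle library. The comparisons with vehicle share vehicle libraries 1 to 3, so their values for a gene are set side by side and are not independent.

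**Figure D1:**
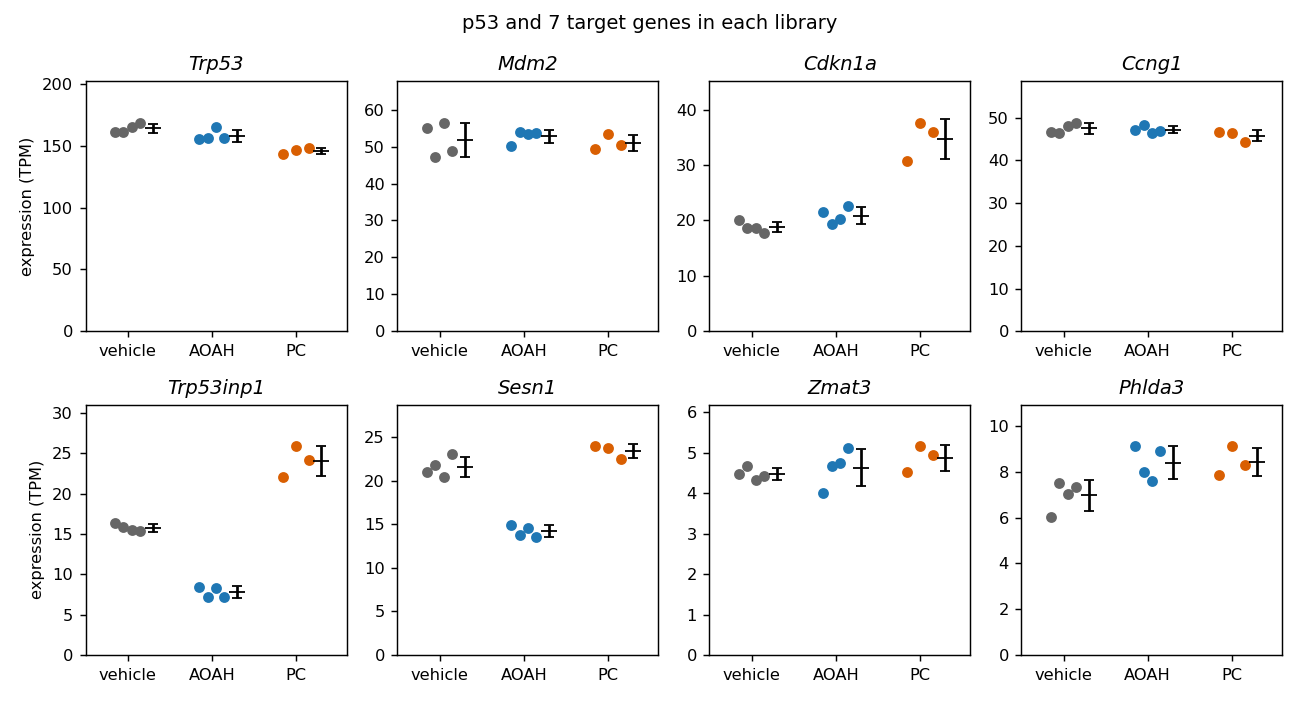
Expression in TPM (y axis, from 0) of p53 and 7 target genes in each vehicle, AOAH and PC library (points, in order of labelled batch), with the group mean ± SD as black bars (n = 4, 4 and 3). Trp53inp1 forms 3 separate levels, near 7.77 TPM with AOAH, 15.8 TPM with vehicle and 24.0 TPM with PC, whereas the Mdm2 and Ccng1 groups overlap.

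Trp53, the gene of p53 itself, was the most abundant of the 8. Its level was 161, 161, 165 and 169 TPM in vehicle libraries 1 to 4, 155, 156, 165 and 156 TPM in AOAH libraries 1 to 4, and 143, 146 and 148 TPM in PC libraries 1 to 3. All PC libraries lay below every library of the other groups, while AOAH and vehicle overlapped through AOAH 3. Trp53 fell with PC from 163 ± 2.50 TPM in vehicle 1 to 3 to 146 ± 2.31 TPM (SD, n = 3 in each group), a log2 difference of -0.16 ± 0.03 (SE, limma adjusted p = 0.00963). The difference was small, at the 59.3rd percentile of absolute differences over all genes tested. In the authors' deposited table, made from counts, the same log2 fold change was -0.14 with an adjusted p of 0.092, so that table did not call it. With AOAH the log2 difference of Trp53 was -0.05 (95% interval -0.12 to 0.01, limma adjusted p = 0.220), lower in 4 of 4 same-batch pairs, and it reached an adjusted p of 0.0298 under quantile normalization. Trp53 was higher with AOAH than with PC (log2 difference 0.12 ± 0.03, limma adjusted p = 0.0147), a call that was lost under quantile normalization (0.221) and without PC 1 (0.0543).

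Mdm2 encodes the ubiquitin ligase that marks p53 for destruction and is a standard readout of p53 activity. It stood at 55.0, 47.2, 56.5 and 48.7 TPM with vehicle, 50.1, 53.9, 53.5 and 53.7 TPM with AOAH, and 49.2, 53.3 and 50.4 TPM with PC. The groups overlapped fully, and the vehicle libraries were the most scattered, with a coefficient of variation of 8.82%. The log2 difference was 0.03 with AOAH (95% interval -0.11 to 0.17, limma adjusted p = 0.762) and -0.05 with PC (-0.22 to 0.12, adjusted p = 0.689).

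Cdkn1a encodes p21, the inhibitor of cyclin-dependent kinases through which p53 halts division. It stood at 20.1, 18.6, 18.7 and 17.8 TPM with vehicle, 21.4, 19.3, 20.2 and 22.6 TPM with AOAH, and 30.7, 37.6 and 35.9 TPM with PC. Every PC library was above every other library, and AOAH and vehicle overlapped. Cdkn1a rose with PC from 19.1 ± 0.807 to 34.8 ± 3.59 TPM (SD, n = 3), which is 1.82-fold in TPM and a log2 difference of 0.83 ± 0.08 (SE, limma adjusted p = 0.00146). It was higher in 3 of 3 same-batch pairs, which follows from the lack of overlap. The rise was the largest change of the 8 genes with PC, at the 97.7th percentile of all genes tested. With AOAH the log2 difference was 0.14 (95% interval 0.01 to 0.28), higher in 4 of 4 same-batch pairs, with an unadjusted p of 0.0377 and a limma adjusted p of 0.109. Cdkn1a was lower with AOAH than with PC by a log2 difference of -0.71 ± 0.08 (limma adjusted p = 2.49e-04). An annotated gene on the opposite strand, AC167363.2, overlaps exons of Cdkn1a, and whether the authors' quantification used strand is not given in the sources used here.

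Ccng1, the gene of cyclin G1, which takes part in the feedback on p53 through MDM2, differed little between groups. It stood at 46.6, 46.4, 48.1 and 48.8 TPM with vehicle, 47.1, 48.3, 46.4 and 46.9 TPM with AOAH, and 46.7, 46.4 and 44.3 TPM with PC. Its coefficient of variation within a group was 1.67% to 2.79%, and the groups overlapped. The log2 difference was -0.01 with AOAH (95% interval -0.08 to 0.06, limma adjusted p = 0.872) and -0.04 with PC (-0.13 to 0.06, adjusted p = 0.552).

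The starts of these genes were searched for the p53 response element because Cdkn1a and Ccng1, both textbook direct targets, differed in their response to PC. The element was searched by its consensus, as 2 adjoining half-sites of 10 bases with no spacer, over the 250 bases before and 50 bases after each RefSeq start (build GRCm38.p6, not the build mm39 of the expression table). Only positions where each half-site kept the C and the G that the consensus fixes were scored, so mismatches fall on the other bases. The best match below, and the shares over all windows, are among such positions. The consensus is its own reverse complement, so a match reads on both strands. Each stretch is printed 5′ to 3′ on the strand of the gene, with the 20 bases of the best match in capitals and 20 bases on either side:
Cdkn1a, upstream start, chr17:29090908-29090967, plus strand: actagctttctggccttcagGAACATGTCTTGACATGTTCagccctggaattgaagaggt
Ccng1, chr11:40755442-40755501, minus strand: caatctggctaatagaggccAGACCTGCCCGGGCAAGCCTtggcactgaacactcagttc
Sesn1, downstream start, chr10:41887246-41887305, plus strand: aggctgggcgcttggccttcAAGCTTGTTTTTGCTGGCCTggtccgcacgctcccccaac
The Cdkn1a match, 51 to 32 bases before the upstream of its 2 annotated starts, and the Ccng1 match, 195 to 176 bases before its start, each had 1 mismatch to the consensus. A match with at most 1 mismatch was present in 22 of 32851 RefSeq windows (0.067%). The Sesn1 match, 173 to 154 bases before the downstream of its 2 starts, had 3 mismatches, and so had the best match of Trp53. At most 3 mismatches were present in 1.38% of all windows. The other starts of Cdkn1a and Sesn1 had best matches with 7 and 8 mismatches. The best match had 5 mismatches in the window of Phlda3 and 9 in that of Mdm2. Elements outside these windows, with a spacer or without the fixed C and G were not searched, so a poor best match does not show that a gene lacks one. Trp53inp1 and Zmat3 had no entry. A match describes the letters only. Thus Cdkn1a and Ccng1 each carry a near-consensus element before a start, and their log2 differences with PC were 0.83 and -0.04.

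Trp53inp1 encodes a stress protein that promotes p53-dependent cell death and autophagy, and it was the one member called in all 3 comparisons. It stood at 16.4, 15.9, 15.5 and 15.3 TPM with vehicle, 8.44, 7.15, 8.35 and 7.12 TPM with AOAH, and 22.1, 25.8 and 24.2 TPM with PC. The 3 groups did not overlap, in the order AOAH, vehicle, PC. With AOAH it fell from 15.8 ± 0.492 to 7.77 ± 0.729 TPM (SD, n = 4), which is 2.03-fold lower in TPM and a log2 difference of -0.94 ± 0.07 (SE, limma adjusted p = 3.90e-05), at the 98.6th percentile of absolute differences. With PC it rose from 15.9 ± 0.477 to 24.0 ± 1.87 TPM (SD, n = 3), a log2 difference of 0.56 ± 0.07 (limma adjusted p = 0.00251). The direct difference between AOAH and PC was -1.52 ± 0.08 on the log2 scale (limma adjusted p = 7.17e-06), and the TPM was 3.10-fold higher with PC than with AOAH.

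Sesn1 encodes sestrin 1, which limits mTORC1 signalling and oxidative stress. It stood at 21.0, 21.8, 20.4 and 23.1 TPM with vehicle, 14.9, 13.8, 14.6 and 13.5 TPM with AOAH, and 23.9, 23.8 and 22.5 TPM with PC. All AOAH libraries lay below all others, and PC lay above vehicle 1 to 3, with vehicle 4 inside the PC range. Sesn1 fell with AOAH from 21.6 ± 1.15 to 14.2 ± 0.671 TPM (SD, n = 4), a log2 difference of -0.57 ± 0.05 (SE, limma adjusted p = 1.51e-04). With PC the log2 difference was 0.14 (95% interval 0.02 to 0.27), with an unadjusted p of 0.0254 and a limma adjusted p of 0.0949. The direct difference between AOAH and PC was -0.68 ± 0.05 on the log2 scale (limma adjusted p = 3.39e-05).

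Zmat3, a zinc finger gene that acts in p53-dependent growth control through RNA binding, was the least abundant of the 8. Zmat3 stood at 4.47, 4.67, 4.33 and 4.44 TPM with vehicle, 4.01, 4.68, 4.75 and 5.11 TPM with AOAH, and 4.53, 5.16 and 4.95 TPM with PC. The groups overlapped, and the log2 difference was 0.04 with AOAH (95% interval -0.13 to 0.21, limma adjusted p = 0.753) and 0.10 with PC (-0.09 to 0.29, adjusted p = 0.452).

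Phlda3 encodes a small protein that blocks AKT at the membrane. It stood at 6.01, 7.50, 7.05 and 7.34 TPM with vehicle, 9.11, 8.01, 7.58 and 8.89 TPM with AOAH, and 7.88, 9.11 and 8.29 TPM with PC. Every AOAH and every PC library was above every vehicle library, and the treated groups overlapped with a direct log2 difference of -0.01 (95% interval -0.19 to 0.18). The log2 difference was 0.24 ± 0.08 with AOAH (limma adjusted p = 0.0662) and 0.27 ± 0.10 with PC (limma adjusted p = 0.101). Phlda3 was higher in 4 of 4 same-batch pairs with AOAH and in 3 of 3 with PC, counts that the lack of overlap with vehicle fixes in advance. Phlda3 passed with AOAH in 1 fit over all 11 libraries (adjusted p = 0.0468) and under quantile normalization (0.0454). Trp53inp1 and Sesn1 were lower with AOAH in 4 of 4 same-batch pairs and higher with PC in 3 of 3. These counts too are fixed by the lack of overlap between the libraries compared. Mdm2 and Ccng1 were each higher in 2 of 4 such pairs with AOAH and in 1 of 3 with PC, and Zmat3 in 3 of 4 and 3 of 3. Groups that do not overlap were common among all genes. With AOAH 3 of the 8 genes had them against a background of 28.8% of genes, with PC 5 of 8 against 39.2%, and between AOAH and PC 4 of 8 against 50.7%.

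**Figure D2:**
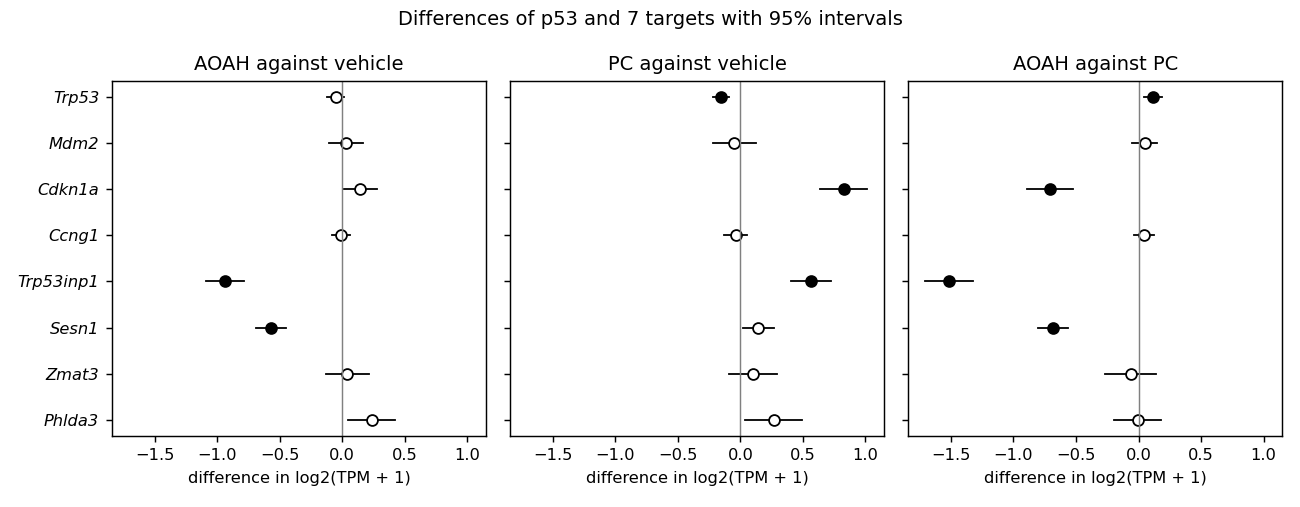
Differences in log2(TPM + 1) (x axis) of the 8 genes in 3 comparisons, with 95% intervals as lines and points filled where the limma adjusted p was under 0.05. Trp53inp1 lies at -0.94 with AOAH and 0.56 with PC, and Cdkn1a at 0.14 and 0.83.

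The authors' deposited tables, made with DESeq2 from counts, hold the same 8 genes. In the authors' deposited table for AOAH, Trp53inp1 had a log2 fold change of -1.03 (adjusted p = 3.88e-31) and Sesn1 -0.61 (adjusted p = 1.94e-08), and none of the other 6 genes was called. In the authors' deposited table for PC, Cdkn1a had a log2 fold change of 0.87 (adjusted p = 8.02e-11) and Trp53inp1 0.61 (adjusted p = 3.73e-11), and the other 6, Trp53 among them, were not called.

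A wider list of 53 p53 targets was sorted by role, of which 52 were in the table and 50 were tested in each comparison. This list and its roles include the 7 target genes described above. With AOAH 6 rose and 6 fell (24% called, against 25.2% of all genes, of which 13.1% were higher and 12.1% lower), with a median log2 difference of 0.04 against 0.01 over all genes. The even split with AOAH was not kept under quantile normalization, with 12 higher and 5 lower (1442 and 1327 of 11566 over all genes). It was 8 and 7 in 1 fit over all 11 libraries (1667 and 1557 of 11596 over all genes). With PC 11 rose and 3 fell (28% called, against 19.5%, of which 8.27% higher and 11.2% lower), with a median of 0.07 against -0.01. Set directly against PC, AOAH had 10 of them higher and 14 lower (48% called, against 45.8%, of which 24.3% higher and 21.5% lower). The median there was -0.06 against 0.00274. The PC count was 9 with batch as a block (7 higher, 2 lower), 9 with no filter, and 8 without vehicle 1 or without vehicle 3. Leaving out the 7 target genes described above, 43 were tested. Of these 6 rose and 4 fell with AOAH (23.3% called, against 25.2% of all genes). With PC 9 rose and 3 fell (27.9%, against 19.5%). Between AOAH and PC 10 were higher and 11 lower (48.8%, against 45.8%).

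Cell cycle targets moved in both directions. With PC 4 of 8 tested rose and 1 fell (62.5% called, against 19.5% of all genes), and with AOAH 2 rose and 1 fell (37.5%, against 25.2%). Btg2, an antiproliferative gene, stood at 32.9, 34.1, 31.5 and 32.2 TPM with vehicle, 25.0, 24.1, 27.2 and 23.4 TPM with AOAH, and 43.6, 47.9 and 44.6 TPM with PC. Its 3 groups did not overlap, with log2 differences of -0.38 with AOAH (limma adjusted p = 0.00103) and 0.45 with PC (limma adjusted p = 0.00223). Plk3, a stress-responsive kinase, rose with PC (0.48), and Sfn, the cell cycle inhibitor 14-3-3 sigma, was the other that rose (0.35, limma adjusted p = 0.0221). The Sfn call was lost in 7 of the alternatives, with adjusted p up to 0.0759. Sfn was not called in the authors' deposited table for PC (0.38, adjusted p = 0.122). Gtse1, a protein of G2 phase that restrains p53, went the opposite way, lower with PC (-0.78) and higher with AOAH (0.33), and Plk2, a related kinase, rose with AOAH (0.45). Gadd45a, a growth arrest gene, had log2 differences of -0.31 with AOAH and 0.37 with PC, and was called in neither.

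Of 15 tested cell death targets, 4 rose and 1 fell with PC (33.3% called, against 19.5% of all genes), and 1 rose and 3 fell with AOAH (26.7%, against 25.2%). The PC count of 5 was 2 with no filter, with batch as a block, without vehicle 1 and without vehicle 3, and 3 without PC 3. Bbc3 encodes PUMA, a BH3-only inducer of apoptosis. It stood at 8.47, 8.22, 8.57 and 7.51 TPM with vehicle, 5.06, 6.03, 5.97 and 5.66 TPM with AOAH, and 11.2, 16.5 and 11.7 TPM with PC. Like Trp53inp1 and Btg2 it had 3 groups that did not overlap, with log2 differences of -0.46 with AOAH (limma adjusted p = 0.00187) and 0.57 with PC (limma adjusted p = 0.0294). The PC call of Bbc3 was lost with no filter (0.0854), with batch as a block (0.0535), and without PC 3 (0.0522), vehicle 1 (0.0823), vehicle 2 (0.075) or vehicle 3 (0.0765). Pmaip1, the gene of the BH3-only protein NOXA, rose with PC (0.52, limma adjusted p = 0.00408). Bax, the pore-forming effector, rose with PC by 0.16, a call lost with no filter (0.0529), with batch as a block (0.0551), and without vehicle 1 (0.0564) or vehicle 3 (0.0653). The authors' deposited table for PC called Bbc3 (0.64, adjusted p = 0.0224) and did not call Bax (0.17, adjusted p = 0.0883). The target that fell with PC was Pidd1 (-0.36, limma adjusted p = 0.0426), a call lost in 7 of the alternatives, with adjusted p up to 0.124. In the authors' deposited table Pidd1 had a log2 fold change of -0.37 with PC (adjusted p = 0.0220). Fas, a death receptor, fell with AOAH (-0.21) and Tnfrsf10b, another death receptor, rose (0.31). The authors' deposited table for AOAH did not call Fas (-0.22, adjusted p = 0.245) and called Tnfrsf10b (0.34, adjusted p = 0.0156).

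Among 8 tested metabolic and stress targets, 2 rose with PC and none fell (25% called, against 19.5% of all genes), and 1 rose and 2 fell with AOAH (37.5%, against 25.2%). Sesn2, the paralog of Sesn1, stood at 6.25, 5.68, 6.32 and 6.46 TPM with vehicle, 7.69, 6.38, 6.99 and 7.57 TPM with AOAH, and 10.5, 10.4 and 10.4 TPM with PC. The PC libraries were thus the highest, and Sesn2 rose with PC (log2 difference 0.70 ± 0.07, limma adjusted p = 0.00145) and had a log2 difference of 0.18 with AOAH (limma adjusted p = 0.0966, and 0.0285 under quantile normalization). Sesn1 was thus called with AOAH and not with PC, and Sesn2 with PC and not with AOAH, while both were lower with AOAH than with PC (log2 differences of -0.68 and -0.49). Ddit4, an inhibitor of mTORC1, rose with PC (0.43). With AOAH Gls2, a mitochondrial glutaminase, rose by 0.63 (limma adjusted p = 0.0136), a call lost in 1 fit over all 11 libraries (0.0776). Aldh4a1, of proline breakdown, fell by 0.19, a call lost with batch as a block (0.0655), under quantile normalization (0.0897) and without AOAH 1 (0.0545), vehicle 2 (0.056), vehicle 3 (0.0514) or vehicle 4 (0.0577). The authors' deposited table for AOAH did not call Aldh4a1 (adjusted p = 0.208). It called Tigar higher (0.25, adjusted p = 0.0281), which limma did not (0.24, adjusted p = 0.0614).

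Of 6 DNA repair targets, none passed by limma with AOAH (0%, against 25.2% of all genes), and 3 had an unadjusted p under 0.05. These were Ddb2, which recognises ultraviolet damage (log2 difference -0.23, limma adjusted p = 0.0538), and the translesion polymerase genes Polk (0.18, adjusted p = 0.0928) and Polh (0.13, adjusted p = 0.119). Ddb2 passed in 4 of the alternatives, with adjusted p from 0.0270 to 0.0452, and Polk under quantile normalization (0.0188). With PC 2 of 6 were called (33.3%, against 19.5%). Polh fell by 0.31 (limma adjusted p = 0.0156) and the nuclease gene Ercc5 rose by 0.34 (limma adjusted p = 0.0446). The Polh call was lost without PC 1 (0.0507), PC 2 (0.0511), vehicle 1 (0.0594) or vehicle 3 (0.0537). The Ercc5 call was lost in 9 of the alternatives, with adjusted p up to 0.125. Polh was called in the authors' deposited table for PC (-0.31, adjusted p = 0.0137), and Ercc5 was not (0.39, adjusted p = 0.0893). Of the 13 other targets 2 rose with AOAH (15.4%, against 25.2%). Cd82, a tetraspanin, rose by 0.17 and Ninj1, a mediator of membrane rupture, by 0.20, and by limma none of the 13 was called with PC, nor had an unadjusted p under 0.05 (0 of 13). Quantile normalization gave 4 of the 13 with AOAH, against 2769 of 11566 genes. The Ninj1 call was lost in 9 of the alternatives, with adjusted p up to 0.0898.

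**Figure D3:**
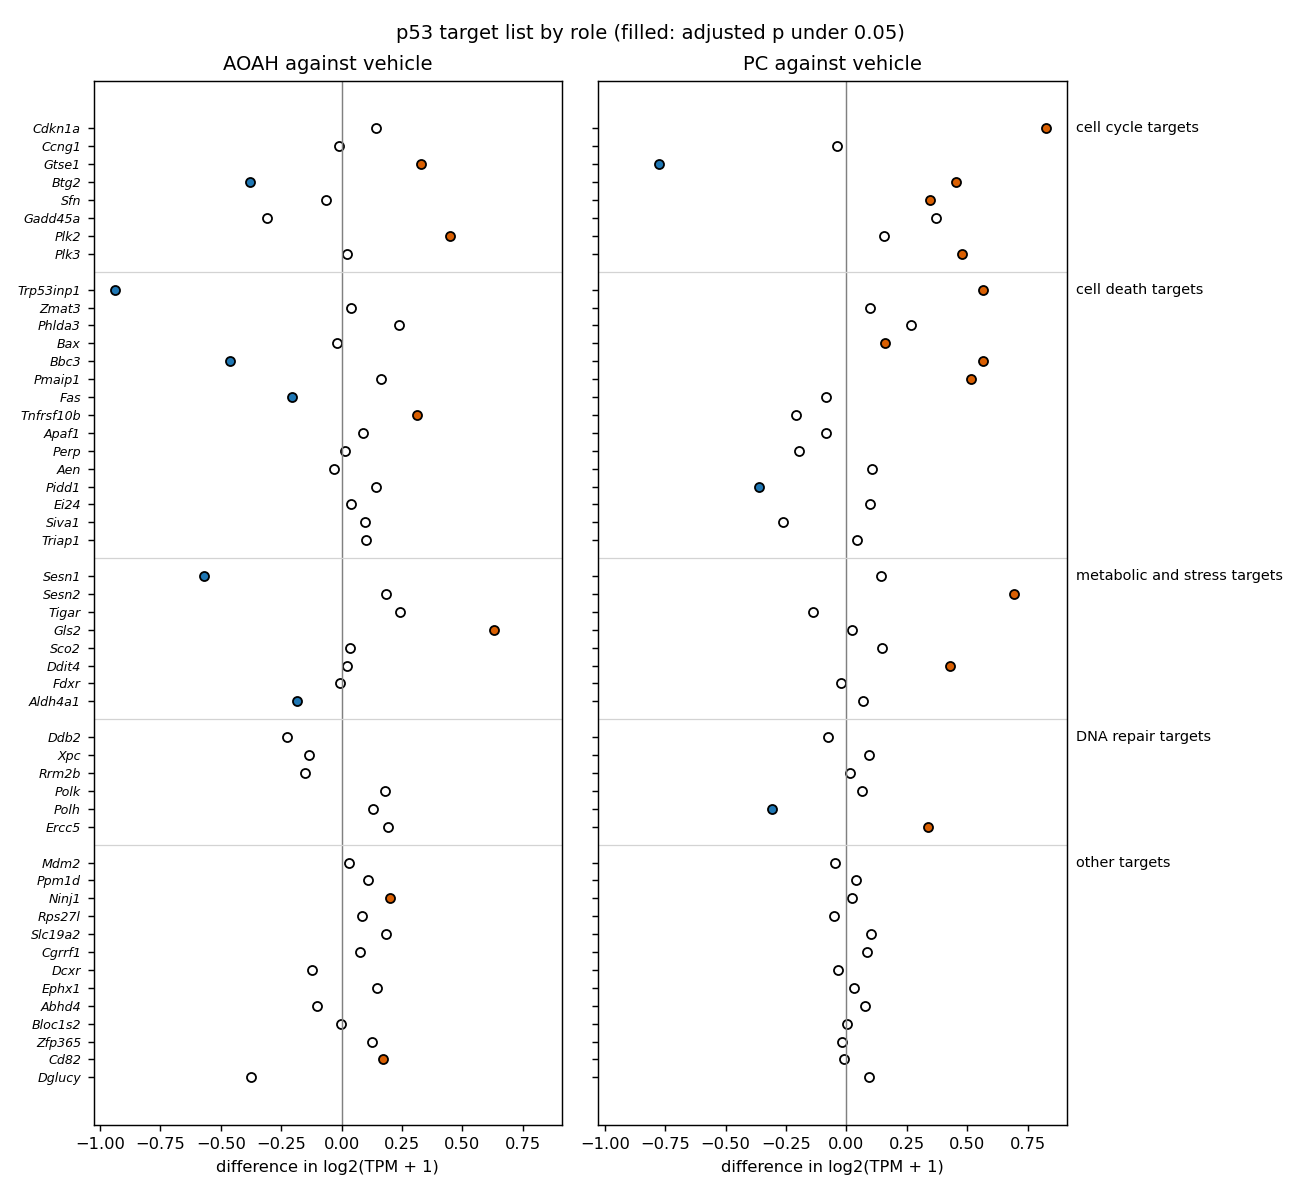
Differences in log2(TPM + 1) (x axis) of the tested p53 targets (rows, grouped by role), with points filled orange where called higher and blue where called lower. Cdkn1a, Sesn2, Bbc3 and Trp53inp1 are the rightmost with PC, and Trp53inp1 and Sesn1 the leftmost with AOAH.

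Of 16 tested regulators of p53, 4 fell with PC and none rose (25% called, against 19.5% of all genes, of which 11.2% lower). The count was 2 with no filter, with batch as a block, and without PC 3, vehicle 1 or vehicle 3. Those that fell were Chek1 (-0.41), Atr (-0.36) and Atm (-0.50), kinases of the DNA damage response, and Pml (-0.26), a nuclear body protein. The Atm call was lost with no filter (0.0596), with batch as a block (0.0624), and without PC 3 (0.0568), vehicle 1 (0.066) or vehicle 3 (0.0635), and the Pml call in 8 of the alternatives, with adjusted p up to 0.113. Atm (-0.51, adjusted p = 3.6e-06) and Pml (-0.26, adjusted p = 0.0213) were called in the authors' deposited table for PC. With AOAH 1 of 16 fell and 1 rose (12.5%, against 25.2%). Mdm4, the partner of MDM2 that masks the activation domain of p53, stood at 51.2, 44.3, 47.2 and 47.6 TPM with vehicle, 38.4, 37.0, 39.9 and 40.1 TPM with AOAH, and 49.6, 52.8 and 47.3 TPM with PC. AOAH was thus the low group, and Mdm4 fell by 0.28 against vehicle (limma adjusted p = 0.00331), with a log2 difference of -0.35 against PC (adjusted p = 6.92e-04). Chek1 rose by 0.22 with AOAH (limma adjusted p = 0.0171), a call lost with batch as a block (0.0524). Trp53bp1, a DNA damage response protein that binds p53, had a log2 difference of 0.24 with AOAH (limma adjusted p = 0.0503) and passed in 8 of the alternatives, with adjusted p from 0.0270 to 0.0498. In the authors' deposited table Trp53bp1 had a log2 fold change of 0.24 with AOAH (adjusted p = 0.0112). The p53 relatives Trp63 and Trp73 and the p53 activator gene Cdkn2a, which encodes ARF, were under the 1 TPM filter.

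Genes of the division cycle, of resting T cells and of the ATF4 response moved beside these genes. Over all genes tested, 8.27% were called higher and 11.2% lower with PC, and 13.1% higher and 12.1% lower with AOAH. All 10 listed G2 and M phase markers fell with PC and 8 rose with AOAH. Top2a, a topoisomerase of dividing cells, had log2 differences of -1.21 with PC and 0.40 with AOAH. Of 10 listed naive T cell and FOXO genes 8 rose with PC and 9 fell with AOAH, Klf2, a factor of resting T cells, by 1.79 with AOAH. The count of 8 with PC was 5 with no filter and without PC 3, vehicle 1 or vehicle 3. Of 6 listed ATF4 genes 5 rose with PC, Trib3, a pseudokinase, by 1.00, while with AOAH 1 rose and 2 fell. The Trib3 call with AOAH (-0.36) was lost in 8 of the alternatives, with adjusted p up to 0.0776, and the Atf4 call (0.10) under quantile normalization (0.251). The part of these programmes in the values of Cdkn1a, Trp53inp1 and Sesn1 was not tested.

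For the members whose group means spanned at least 0.5 on the log2(TPM + 1) scale, the nearest patterns were sought among 10390 named genes. Nearness was the root mean square difference, over the 11 libraries, between deviations from each gene's own mean. Cdkn1a, with a span of 0.85, was nearest to Cited4 (0.079), a transcriptional coregulator, Rhob (0.08), a small GTPase, and Anxa2 (0.0917), a calcium-dependent membrane protein. Cited4 averaged 0.80 TPM with AOAH, 0.63 TPM with vehicle and 2.07 TPM with PC, so it passed the 1 TPM filter through the PC libraries alone, and at such levels the pseudocount of 1 shrinks a log2 difference. Trp53inp1, with a span of 1.51, was nearest to Txnip (0.0896), a brake on glucose uptake that was also on the naive and FOXO list, Il6ra (0.0937), the interleukin-6 receptor, and Hbp1 (0.101), a transcriptional repressor. Sesn1, with a span of 0.68, was nearest to Cnp (0.0384), Itm2b (0.0452) and Ms4a4b (0.0465), a T cell membrane protein. No p53 target on the wider list was among these 9 genes. With 50 targets tested and 10390 genes searched, that is the likely outcome for any 9 genes, so nothing is read from it.

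**Figure D4:**
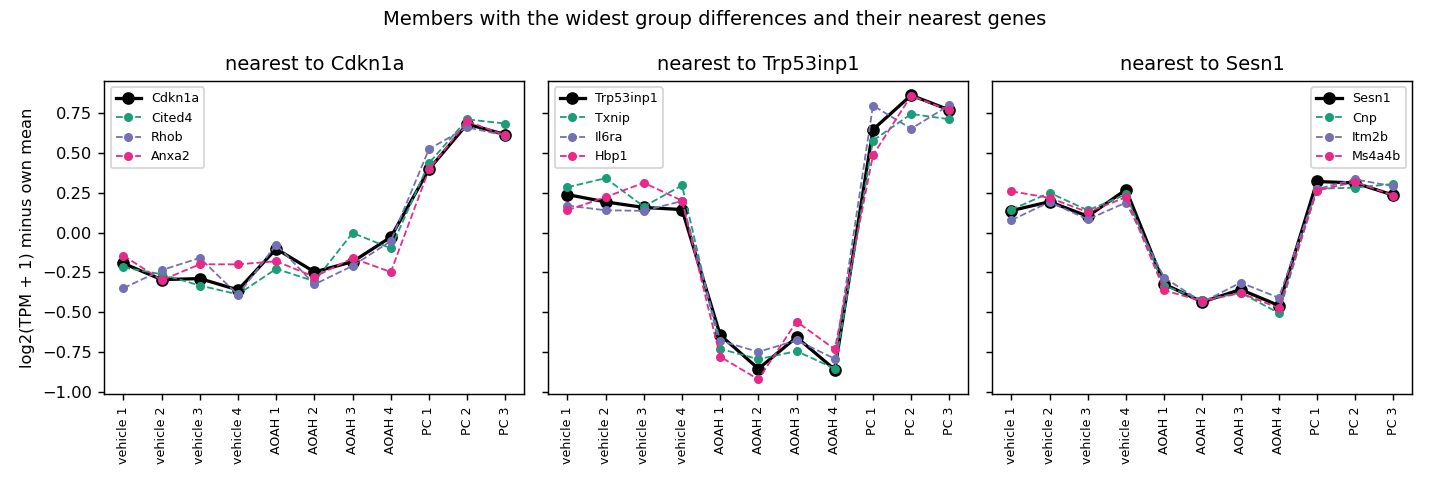
Deviation of log2(TPM + 1) from each gene's own mean (y axis) in the 11 libraries (x axis) for Cdkn1a, Trp53inp1 and Sesn1 (black) and the 3 genes nearest to each (dashed). Cdkn1a is high in the PC libraries alone, Sesn1 is low in the AOAH libraries alone, and Trp53inp1 takes 3 levels.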

How the data were processed

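RNA of 11 libraries (4 AOAH, 3 PC, 4 vehicle) was measured after poly(A) selection and paired sequencing, per the labels' protocols. The authors quantified transcripts with RSEM on build mm39, per the submitters' processing notes, and deposited log2(TPM + 1) values, whose back-transformed sums were 998406 to 998655 TPM per library. The sources used here name no aligner, annotation, strand setting or version. The authors also deposited DESeq2 results, from which the log2 fold change and the adjusted p-value were read. The authors' remaining columns, not used, are the mean signal (size-factor scaled counts), the standard error of the fold change, the Wald score and the unadjusted p-value. Ensembl IDs were named through GENCODE M21. The repertoire table was not used.

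Tests were made on log2(TPM + 1), a pseudocount of 1, with limma 3.58.1 in R 4.3.3 (mean-variance trend, robust, two-sided), fitted on every gene that averaged 1 TPM or more in the comparison. AOAH was compared with vehicle 1 to 4, PC with vehicle 1 to 3, whose labels list that comparison, and AOAH with PC. The fit was tested on simulated data. The members and lists were chosen with earlier results of these data known. All 8 members were named, and of each other list the called genes, or the 4 of lowest p where more than 4 were called. Sfn, Gadd45a, Pidd1, Tigar, Trp53bp1, Ddb2, Polk and Polh with AOAH were chosen after their values were seen. Rprm was not in the table.

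Pairing was taken from the batch labels. Deviations from group means correlated by -0.00331 on average across genes in 10 same-batch pairs (-0.0794 to 0.118) and 0.00114 in 30 others. The alternatives were pseudocounts of 0.1 and 5, no filter, a filter of 5 TPM, batch as a block, 1 fit over all 11 libraries, TMM rescaling without weights, quantile normalization, weights per library, PC against all 4 vehicle libraries, and leaving out 1 library at a time.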

Additional observations from a re-analysis of the deposited data

Results flagged for a closer look

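In groups of 4 libraries, 1 library was checked for standing apart from the other 3 by its gap to the nearest divided by the whole range, on the log2(TPM + 1) scale, with 16 such checks over the 8 genes, of which chance flags about 1 in 20. Trp53 in AOAH 3 (165 TPM) lay above the other AOAH libraries (155 to 156 TPM), with a gap of 0.892 of the range. Mdm2 in AOAH 1 (50.1 TPM) lay below the others (53.5 to 53.9 TPM), with a gap of 0.88.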

How the results depend on the processing

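Of the values of the 8 genes under the alternatives, 132 of 135 stayed on their side of the threshold with AOAH, 127 of 127 with PC and 125 of 127 between AOAH and PC, and no call was reversed. Those that changed were Trp53 and Phlda3. With AOAH 4 of the 8 genes were called under quantile normalization, against 2 as deposited. Over all genes 2769 of 11566 were then called, against 2913 of 11561. With PC the count over all genes, 2270, was 1339 with no filter, and 1274 to 2083 with 1 library left out (1405 without PC 2, 1387 without PC 3, 1274 without vehicle 1 and 1391 without vehicle 3). The target list count with PC, 14, was 9 with no filter, 9 with batch as a replicate block, and 8 to 11 with 1 library left out. The block changed no call of the 8 genes and left 2300, 1572 and 4246 genes called with AOAH, with PC and between them (in the last fit AOAH 4 has no partner and does not bear on the difference). Of the values of all listed genes, 36 of 1586 lost a call and 36 gained one with AOAH, 71 of 1495 lost and 3 gained one with PC, and 26 of 1494 lost and 23 gained one between them. No scaling moved the median of all genes by more than 0.1. Zmat3 was under the 5 TPM filter. TPM keeps no depth, so no limit from depth can be given.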

Other observations

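The other inhibitors of cyclin-dependent kinases were compared with Cdkn1a. Cdkn1b, the gene of p27, which holds resting T cells out of the cycle, stood at 32.3 TPM with vehicle, 16.4 TPM with AOAH and 43.0 TPM with PC, lower by a log2 difference of -0.94 with AOAH (limma adjusted p = 7.83e-05) and higher by 0.41 with PC (adjusted p = 0.00759). Unlike Cdkn1a it was thus called with both treatments. Cdkn2c, the gene of p18, fell with PC (-0.58, limma adjusted p = 0.0131), a call lost without vehicle 1 (0.0517), and had a log2 difference of -0.04 with AOAH. Cdkn2d, the gene of p19, fell with AOAH (-0.21, limma adjusted p = 0.0345), a call lost in 7 of the alternatives, with adjusted p up to 0.0876. Cdkn1c and Cdkn2b were under the 1 TPM filter.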
